A study of Homo sapiens with 6 samples.

Results

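The genes described here encode subunits of ATP-dependent chromatin remodellers: the SWI/SNF complexes (BAF, PBAF and the non-canonical form, ncBAF), the ISWI complexes, the INO80 family (INO80, SRCAP and the EP400-containing TIP60 complex), and the related SNF2-type proteins ATRX and HELLS. They were taken as 39 listed gene symbols, by a rule that uses no measured value, although the list was drawn up with earlier results of these data known. All 39 were found among the 26485 gene symbols of the count tables, and 37 passed the filter on low counts, which kept 12282 genes. SMARCA1 and ACTL6B did not pass it.

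Remodellers spend ATP to slide, evict or exchange nucleosomes. SWI/SNF complexes open regulatory DNA, ISWI complexes space nucleosomes into regular arrays, and INO80-family complexes reposition nucleosomes and exchange histone variants. Many SWI/SNF positions can be filled by either of several paralogues, and the choice among them differs between cell types: DPF1, ACTL6B and SS18L1, for example, belong to the neuronal form of BAF, and DPF3 and SMARCD3 are best known from heart and muscle.

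The study asked what the zinc-finger transcription factor ZNF410 does to gene expression, and its title links ZNF410 to SWI/SNF. RNA-seq libraries were made from K562, an established human myeloid leukaemia line, in 3 groups of 2 libraries numbered replicate 1 and replicate 2. Control cells (genotype WT) had received the guide sgNeg2. Knockout cells (genotype ZNF410 KO) had received ZNF410_sgRNA#1 or ZNF410_sgRNA#2, called sgRNA1 and sgRNA2 here, which makes 4 knockout libraries. All cells were grown in IMDM with serum, total RNA was extracted with the RNeasy Mini kit and libraries were made with the VAHTS Universal V6 RNA-seq kit, without a stated treatment or time. The labels speak of knockout cell lines and do not say whether a line was a clone or a pool, or whether the replicates were separate cultures. The p-values therefore measure the spread between these libraries, which may be technical.

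Gene counts summed to 8788816 to 9537470 per library. The ZNF410 count was 331 and 322 in the controls, 175 and 234 under sgRNA1, and 157 and 190 under sgRNA2, so that every knockout library lay below both controls. CHD4, a remodeller of the NuRD complex and a known ZNF410 target, had an FPKM of 91.78 and 106.69 in the controls and 44.21 to 52.2 in the knockout libraries. FPKM scales reads to transcript length and library size, so it can be compared between genes. All 11 K562 markers (erythroid factors and globins) were above an FPKM of 1 in every library. Of the other lineages, CD3D, LYZ and 3 of the 4 epithelial markers also passed 1 in every library, and none of the B lymphoid or fibroblast markers did.

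The promoters of a paralogue pair and a paralogue trio are shown because these families are near the extremes of paralogue choice in K562: SMARCA5 and DPF2 were abundant, whereas SMARCA1 and DPF3 stayed under an FPKM of 1 in the control. Each line gives 300 bases from RefSeq (GRCh38.p14), from 250 before the transcription start to 50 after it, 5′ to 3′ on the gene's strand, with CpG dinucleotides in capitals. The SMARCA5 window lies at chr4:143513452-143513751 (plus strand), the SMARCA1 window at chrX:129523441-129523740 (minus strand), the DPF2 window at chr11:65333602-65333901 (plus strand), and the upstream of the 2 DPF3 windows at chr14:72894052-72894351 (minus strand).
SMARCA5: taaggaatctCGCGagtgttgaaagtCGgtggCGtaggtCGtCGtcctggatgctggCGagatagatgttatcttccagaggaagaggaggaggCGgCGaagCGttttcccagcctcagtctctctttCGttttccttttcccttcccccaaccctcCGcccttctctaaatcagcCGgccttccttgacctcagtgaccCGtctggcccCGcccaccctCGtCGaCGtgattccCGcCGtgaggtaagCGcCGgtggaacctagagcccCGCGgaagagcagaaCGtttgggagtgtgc
SMARCA1: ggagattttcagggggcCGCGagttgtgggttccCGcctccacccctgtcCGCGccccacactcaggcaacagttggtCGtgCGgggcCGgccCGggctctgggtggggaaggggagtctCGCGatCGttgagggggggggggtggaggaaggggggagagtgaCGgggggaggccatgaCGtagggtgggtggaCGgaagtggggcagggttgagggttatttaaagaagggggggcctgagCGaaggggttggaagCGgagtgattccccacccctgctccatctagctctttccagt
DPF2: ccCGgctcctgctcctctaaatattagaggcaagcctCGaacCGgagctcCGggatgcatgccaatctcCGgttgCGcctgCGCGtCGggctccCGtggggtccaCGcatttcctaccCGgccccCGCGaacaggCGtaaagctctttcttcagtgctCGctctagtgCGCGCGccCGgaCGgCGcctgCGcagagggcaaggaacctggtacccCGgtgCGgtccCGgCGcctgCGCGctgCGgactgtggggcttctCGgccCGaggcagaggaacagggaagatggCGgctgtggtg
DPF3: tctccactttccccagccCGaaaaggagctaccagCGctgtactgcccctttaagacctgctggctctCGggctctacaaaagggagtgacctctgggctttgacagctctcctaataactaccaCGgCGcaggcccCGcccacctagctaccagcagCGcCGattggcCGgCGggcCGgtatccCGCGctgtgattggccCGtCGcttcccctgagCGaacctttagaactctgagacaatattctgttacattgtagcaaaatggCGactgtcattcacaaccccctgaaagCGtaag

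The SMARCA5 window held 25 CpG and the SMARCA1 window 17. The DPF2 window held 33 CpG, against 18 and 21 in the DPF3 windows. In both families the window of the abundant paralogue was the richer in CpG, but this did not hold throughout: the DPF1 window held 36 although DPF1 was scarce, and SMARCA1 and DPF3 still had more than the median of 14 over all 35116 RefSeq windows. RefSeq windows were matched for 32 of the 39 genes. Their 49 windows had a median of 30 CpG and ranged from 1 to 55, the highest being in SMARCA4.

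Most of the remodeller genes were well expressed in the control libraries. Of the 39, 29 had a mean control FPKM of at least 10 and 9 of at least 50, whereas 6 were below 5 and 3 below 1. The 36 with at least 0.5 had a median of 24.1, against 11.6 over the 11720 genes with at least 0.5, and 27 of the 36 lay above that overall median. This comparison is a description, since the genes were listed by function and not sampled.

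RUVBL2 and RUVBL1, the AAA ATPases shared by the INO80, SRCAP and TIP60 complexes, were the most abundant. RUVBL2 had an FPKM of 151.9 ± 24.0 (SD, n = 2, as for all control values below) and RUVBL1 100.8 ± 14.7. ACTL6A, the actin-related subunit of the ATPase module, had 100.5 ± 11.7 and could not be separated from RUVBL1. Below them came the catalytic ATPase SMARCA4 at 81.4 ± 0.0495, the core subunits SMARCD2 at 79.5 ± 13.3, SMARCE1 at 71.9 ± 5.72 and SMARCB1 at 71.1 ± 6.24, and the scaffold subunit SMARCC1 at 62.8 ± 0.403. The 2 control values of SMARCA4 overlapped those of SMARCD2, those of SMARCD2 overlapped those of SMARCE1, and those of SMARCE1 overlapped those of SMARCB1, but SMARCA4, at 81.37 and 81.44, lay above both values of SMARCE1 and of SMARCB1.

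The subunits that define the separate SWI/SNF forms had mean levels below those of the genes above, but not below all core genes: SMARCD1 had an FPKM of 40.4 and SMARCC2 29.5, and SMARCD3 was lower than either. For BAF, DPF2 had 47.6, the DNA-binding subunit ARID1A 22.2 ± 3.27 and ARID1B 14.9 ± 0.976. For PBAF, the bromodomain subunit BRD7 had 55.8 ± 6.26 and the PHD-finger subunit PHF10 46.9 ± 9.11, whereas ARID2 had 9.05 ± 2.81 and the multi-bromodomain subunit PBRM1 8.51 ± 2.06. BRD9, which defines ncBAF, had 24.9 ± 1.15. PBAF's own subunits thus spanned a range of levels from PBRM1 to BRD7 in the same libraries.

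Among ISWI genes, BAZ1B led at 49.2 ± 6.55, followed by the ATPase SMARCA5 at 24.4 ± 1.10, BAZ2A, the partner of SMARCA5 in the nucleolar complex NoRC, at 23.2 ± 1.12, BAZ1A, the partner in ACF, at 20.9 ± 3.42 and BPTF, the large NURF subunit, at 11.4 ± 3.50. The INO80-family ATPases SRCAP, EP400 and INO80 had 20.2 ± 5.61, 14.5 ± 0.750 and 10.4 ± 2.30. HELLS, which acts in DNA methylation of repeats, had 9.09 ± 3.17 and ATRX, a histone chaperone partner of DAXX, 4.22 ± 0.566. Over the whole order, 24 of the 38 pairs of neighbours overlapped in their control values, so most adjacent ranks are not resolved with 2 libraries.

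**Figure D1:**
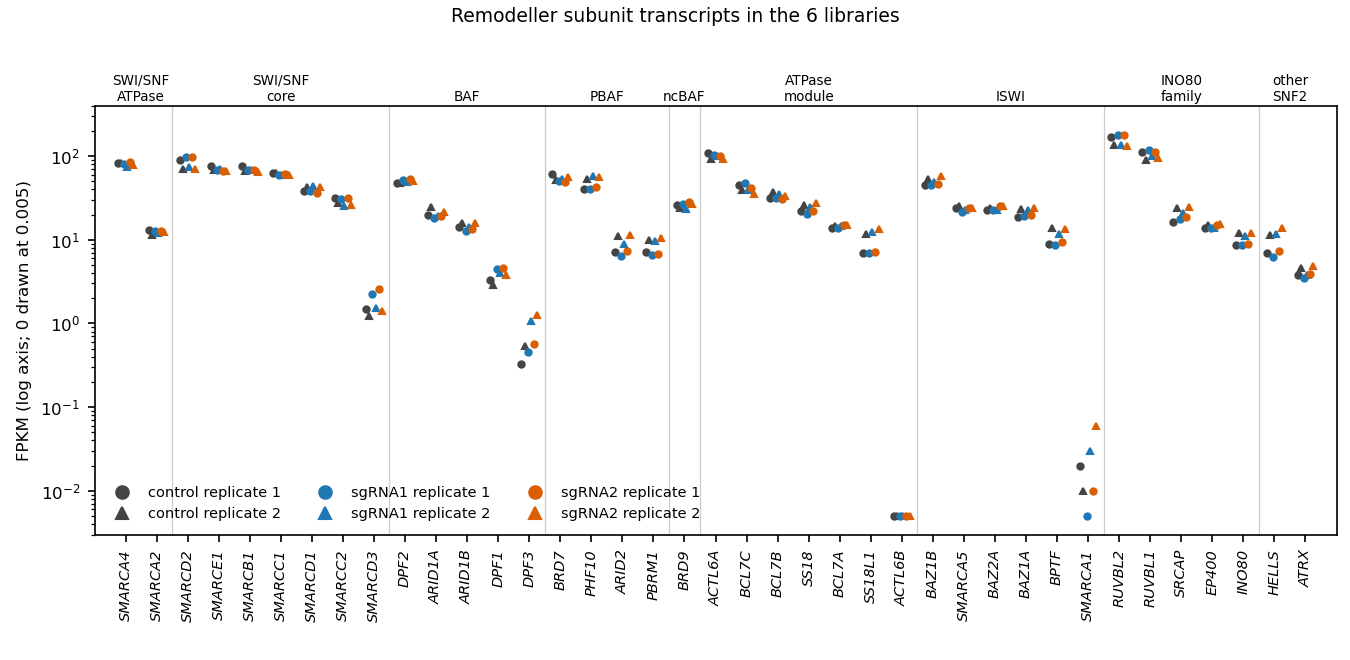
Deposited FPKM on a log axis for each of the 39 remodeller subunit genes, grouped by role, with 1 point per library. Colours give the guide and marker shapes the replicate number. SMARCA1 and ACTL6B lie at the bottom, and points of replicate 1 and replicate 2 separate for genes such as SS18L1 and HELLS.

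The balance within each family of related genes was measured as each gene's percent of the summed FPKM of the family in each library. Not all of these families are alternatives for the same position: BRD7 and BRD9 belong to different SWI/SNF forms, RUVBL1 and RUVBL2 assemble together, SMARCC1 and SMARCC2 can occur in the same complex, BAZ1A and BAZ1B are partners in different ISWI complexes, and SRCAP, EP400 and INO80 are ATPases of separate complexes. For these the share gives relative abundance only. Exact two-sided permutation tests over libraries are given for the most abundant paralogue of each of 13 families; with 4 against 2 libraries p cannot go below 0.0667, and with 3 against 3 it cannot go below 0.1, so no share can pass 0.05. In the control, 3 families had a single paralogue at over 90%. ACTL6A took 100% of its pair: ACTL6B, the neuronal paralogue, was listed at an FPKM of 0 in every library, with 2 counts in the control replicate 1 and 0 in the others. SMARCA5 took 99.9% ± 0.0317 against SMARCA1, whose counts were 1 and 1 in the controls, 0 and 0 under sgRNA1, and 0 and 2 under sgRNA2. DPF2, the histone-reading subunit of BAF in most tissues, took 93.1% ± 0.380, against 6.10% ± 0.647 for DPF1 and 0.839% ± 0.267 for DPF3.

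The other families were shared. SMARCA4 took 86.9% ± 1.17 of the catalytic pair, with SMARCA2 as the remainder. SS18 took 72.2% ± 4.94 against SS18L1. BAZ1B took 70.2% ± 0.643 against BAZ1A, BRD7 69.1% ± 1.41 against BRD9, and SMARCC1 68.1% ± 2.59 against SMARCC2. SMARCD2, known for its role in granulocyte development, took 65.3% ± 5.30, with SMARCD1 at 33.6% ± 5.34 and SMARCD3 at 1.12% ± 0.0371. The closest splits were RUVBL2 at 60.1% ± 0.306 against RUVBL1, ARID1A at 59.6% ± 1.99 against ARID1B, and BCL7C at 46.4% ± 4.75, BCL7B at 38.0% ± 4.27 and BCL7A at 15.6% ± 0.477. Among the INO80-family ATPases, SRCAP had 44.6% ± 3.89, EP400 32.5% ± 4.58 and INO80 22.9% ± 0.695.

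Shares moved little with ZNF410 knockout. Over all families the largest difference of means was 2.62 percentage points, for BRD7, from 69.1% in the control to 66.5% ± 2.78 (SD, n = 4), with an exact permutation p of 0.267. The DPF2 share differed by -2.07 points, from 93.1% to 91.0% ± 0.242 (n = 4), and was lower in 4 of 4 knockout libraries when each was set beside its same-numbered control. Its exact permutation p of 0.0667 is the smallest the design allows, and 0.867 after Benjamini-Hochberg adjustment over the 13 families. The permutation test does not use the pairing by number. The SMARCC1 share (-0.962 to -0.208 points) and the SS18 share (-1.91 to -0.300 points) were also lower in 4 of 4 paired differences. DPF1 took 7.51% ± 0.557 and DPF3 1.49% ± 0.721 of the DPF trio in the knockout libraries (n = 4). Only the share of DPF2 was lower: its FPKM was 47.13 and 48.14 in the control and 49.46 to 52.4 in the knockout libraries. In counts scaled to library size the DPF2 groups overlapped.

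**Figure D2:**
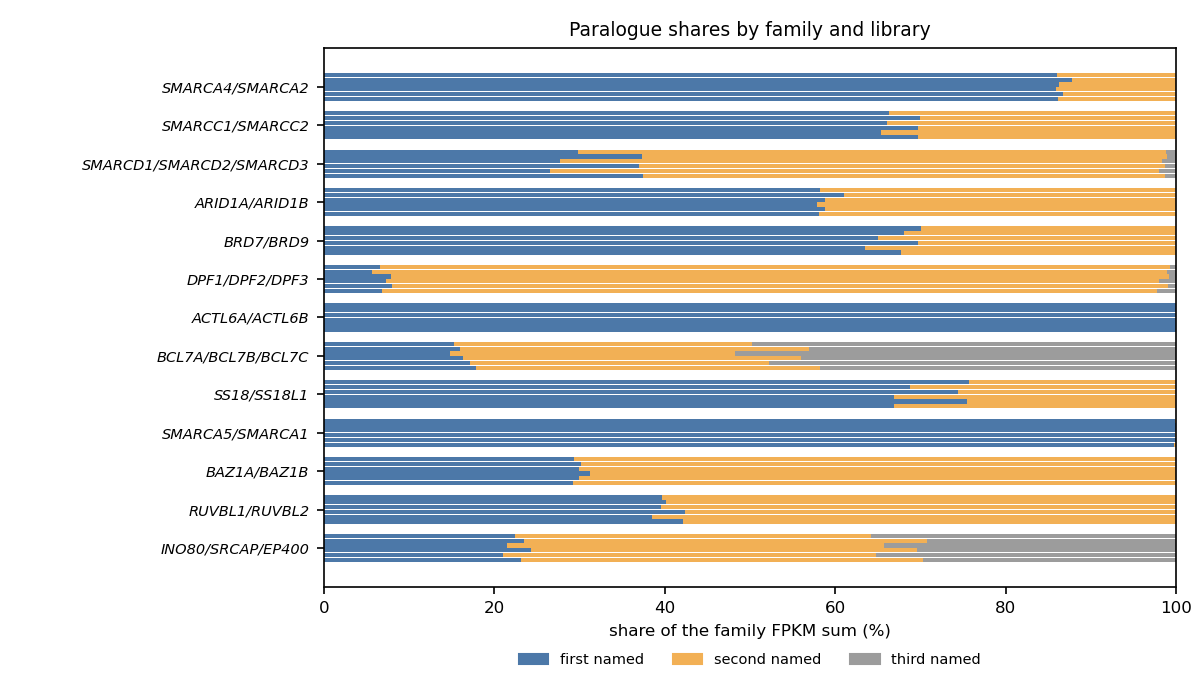
Percent of the family's summed FPKM for each paralogue, in 13 families. Each family has 6 bars, from top to bottom the control replicate 1 and 2, sgRNA1 replicate 1 and 2, and sgRNA2 replicate 1 and 2. The bars of one number resemble each other across guides in the SMARCD and SS18 families, where SMARCD1 had 28.0% in replicate 1 and 37.3% in replicate 2.

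With no library left out, edgeR called no remodeller subunit gene between knockout and control from the whole-number counts. From the estimated counts with a replicate block it called DPF3. In the edgeR quasi-likelihood test of 4 knockout against 2 control libraries, 0 of 37 genes had an adjusted p under 0.05 and 1 had an unadjusted p under 0.05. Of all 12282 genes tested, 0 were called (0%) and 2.31% had an unadjusted p under 0.05. This fit thus missed the check genes too, ZNF410 at a log2 fold change of -0.82 and CHD4 at -1.04 (edgeR adjusted p 0.127). Libraries with the same number resembled each other across guides, and a replicate block (the replicate number as a term in the model) lowered the biological coefficient of variation from 24.2% to 6.17%. With the replicate block edgeR called ZNF410 (adjusted p 0.00226) and CHD4 (adjusted p 1.38e-08). That fit called 1.84% of all genes (226 of 12282) and 0 of the 37. DPF3, SMARCE1 and ARID1A were the 3 with an unadjusted p under 0.05, against 12.9% of all genes, and the DESeq2 Wald test called 0 of the 37 without and with the block.

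The guides gave the same count when fitted apart. With the replicate block edgeR called 0 of 37 for sgRNA1, against 0.887% of all genes, and 0 of 37 for sgRNA2, against 1.38%. At an unadjusted p under 0.05 these numbered 5 and 3, against 9.91% and 12.3% of all genes. Between sgRNA2 and sgRNA1 it called 0 of 37, against 0.0896% of all genes, with 1 at an unadjusted p under 0.05, against 4.39%. The guide comparisons share the same 2 control libraries.

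The intervals reflect the spread between these libraries, which may be technical, and the block was chosen from the same data. With the replicate block, the 95% interval of the log2 fold change lay within ±0.5, or 1.41-fold either way, for 33 of the 37 genes (89.2%), against 67.5% of all genes tested. Without the block it did so for 26 (70.3%), against 45.1%. The remodeller genes also had a higher median control FPKM (24.1 against 11.6, among genes with at least 0.5). The part of expression level in these percentages was not tested. For SMARCA4 the log2 fold change was -0.06 (95% interval -0.17 to 0.05), for SMARCC1 -0.08 (-0.18 to 0.03), and for RUVBL2 0.02 (-0.09 to 0.13). The 4 genes whose interval reached beyond ±0.5 were DPF1, DPF3, SMARCD3 and SMARCB1. By role, the median log2 fold change was -0.01 for the catalytic pair, -0.02 for the 7 core genes, -0.05 for the 4 PBAF genes, 0.06 for the 5 BAF genes, 0.00 for the 5 ISWI genes tested and 0.02 for the 5 INO80-family genes, beside 0.00 over all genes.

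**Figure D3:**
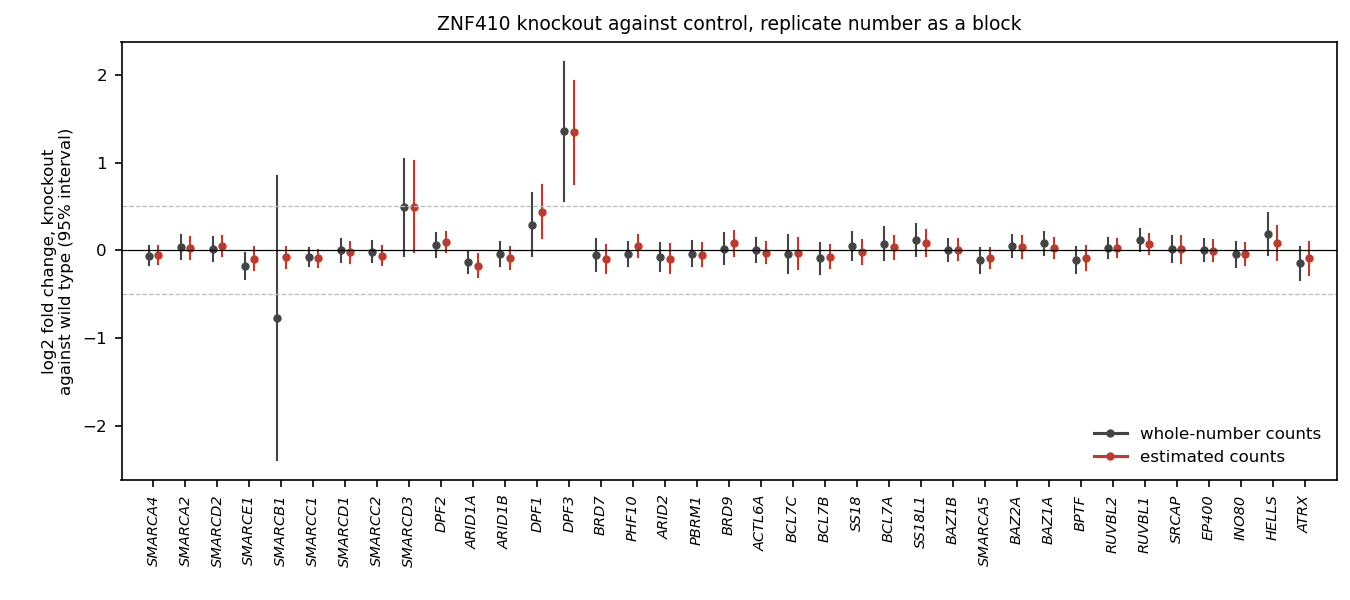
Log2 fold change of knockout against wild type with its 95% interval for the 37 tested genes, from edgeR fits with a replicate block. Dark points use the whole-number counts and red points the estimated counts. DPF3 lies highest at 1.35 in both, and SMARCB1 has a wide interval from the whole-number counts and a narrow one from the estimated counts.

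DPF3, a BAF subunit that reads histone acetylation and methylation, had the highest estimate. Control replicates 1 and 2 had 9 and 13 whole-number counts, those of sgRNA1 had 16 and 38, and those of sgRNA2 had 18 and 47. All 4 knockout libraries lay above both controls, and the replicate 2 libraries were the higher in every group. The log2 fold change was 1.35 (SE 0.371) with the replicate block, with an edgeR adjusted p of 0.0907, and 1.40 (SE 0.567) without the block, with an adjusted p of 1.00. With the block it ranged from 0.83 without control replicate 2 to 1.71 without control replicate 1. The estimate was 0.34 in limma on log2(FPKM + 1), with or without the block, and 0.74 on log2(FPKM + 0.1), scales that understate the change of a low gene. By guide, with the block, sgRNA1 gave 1.21 (SE 0.431, edgeR adjusted p 0.320), sgRNA2 gave 1.49 (SE 0.422, edgeR adjusted p 0.121), and the difference between the guides of 0.27 (SE 0.369) was within its error.

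From the estimated counts of the second deposited table, DPF3 was the 1 gene of 37 that edgeR called with the replicate block, with an estimate of 1.35 on the log2 scale (SE 0.271, edgeR adjusted p 0.0176), against 3.03% of all genes in that fit. Without the block the estimated counts gave 1.28 (SE 0.688, adjusted p 1.00) and no call. For sgRNA2 alone it was again the 1 gene called, at 1.41 (SE 0.315, adjusted p 0.0342), against 2.26% of all genes. For sgRNA1 and between the guides the estimated counts gave 0 of 37, against 1.39% and 0.0548% of all genes, with 8 and 4 at an unadjusted p under 0.05, against 11.9% and 4.55% of all genes. Here the groups overlapped: the estimated counts were 8 and 37 in the control, 31 and 75 under sgRNA1, and 35 and 79 under sgRNA2. The call depended on single libraries, since the adjusted p was 0.130 without control replicate 1 and 0.0691 without sgRNA2 replicate 2. The deposited DPF3 length also differed between libraries, with 1696 bases in control replicate 1 and 4077 in control replicate 2, and the FPKM of 0.33, 0.53, 0.45, 1.06, 0.56 and 1.26 in the same library order is per that length.

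DPF3 lies on the same chromosome arm as ZNF410, on the minus strand at chr14:72619296-72894116 (hg38, GENCODE), with 992501 bases between them. The 10 tested genes that lie between had log2 fold changes with the replicate block from -0.50 to 0.35, with a median of -0.06, and edgeR called 0 of them.

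DPF1 and SMARCD3 shared DPF3's placement: in counts scaled to library size, all 4 knockout libraries lay above both controls for these 3 genes, or 8.11% of 37, against 5.05% of all genes tested. They were singled out after their values were seen, as were SMARCB1 and SMARCE1. The DPF1 counts were 74 and 75 under the control guide, 94 and 93 under sgRNA1, and 105 and 82 under sgRNA2. Its log2 fold change with the block was 0.29 (SE 0.168, edgeR adjusted p 0.510), and 0.44 (SE 0.140, adjusted p 0.132) from the estimated counts. SMARCD3, the SMARCD paralogue of cardiac BAF, had 28 and 32 counts in the control, 39 and 40 under sgRNA1, and 45 and 48 under sgRNA2. Its estimate was 0.49 on the log2 scale (SE 0.259, edgeR adjusted p 0.460). Its FPKM overlapped between the groups, since the 1.40 of sgRNA2 replicate 2 was under the 1.47 of control replicate 1.

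On the lower side, SMARCA5 and SMARCC1 had all 4 knockout libraries below both controls, against 4.41% of all genes. SMARCA5 had an FPKM of 23.66 and 25.21 in the control, 21.68 and 22.72 under sgRNA1, and 23.93 and 24.02 under sgRNA2, and on that scale the groups overlapped. SMARCC1 had an FPKM of 62.56 and 63.13 in the control and of 58.52 to 60.15 in the knockout libraries, without overlap, but its interval above included 0. The SMARCA5 log2 fold change with the block was -0.11 (SE 0.0657, edgeR adjusted p 0.506). ATRX had -0.15 (SE 0.0893, adjusted p 0.534). With 1 library left out it ranged from -0.21 without sgRNA2 replicate 2 to -0.08 without sgRNA1 replicate 2, and without the block from -0.27 to -0.03. With the block and all libraries, ARID1A had -0.14 (SE 0.0588, adjusted p 0.339) and SMARCE1, the HMG-box core subunit, -0.18 (SE 0.0677, adjusted p 0.247). From the estimated counts with the block SMARCE1 had -0.09 (SE 0.0591, adjusted p 0.495). Of the genes that were higher than the control of the same number in 4 of 4 libraries, RUVBL1 had 0.12 (SE 0.0590, adjusted p 0.436) and SS18L1 0.11 (SE 0.0842, adjusted p 0.627). Without the block, RUVBL1 was -0.0046 without sgNeg2 replicate 2, and SS18L1 was -0.22 without sgNeg2 replicate 1 and -0.07 without sgRNA2 replicate 2. ARID1A was 0.0205 without the block and sgNeg2 replicate 2. None of these passed the test.

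SMARCB1, the core subunit lost in rhabdoid tumours, differed between the deposited tables. Its whole-number counts were 238 and 32 in the control, 49 and 34 under sgRNA1, and 31 and 225 under sgRNA2, with high values in 1 control and 1 knockout library. The estimated counts in the same order were 1846, 1768, 1781, 1798, 1817 and 1595, with no such split. Over the 6 libraries the whole-number total was 0.0574 of the estimated one, whereas the other tested remodeller genes had 0.487 to 0.875 and the median over tested genes was 0.553. Of 11677 tested genes in both tables, 200 had a ratio under 0.1, and SMARCB1 was the only remodeller gene among them. With the block, its log2 fold change was -0.77 (SE 0.758, edgeR adjusted p 0.730) from whole-number counts and -0.08 (SE 0.0563, adjusted p 0.543) from estimated counts. The whole-number value rested on single libraries, with -2.65 (adjusted p 0.00992) without sgNeg2 replicate 2, -1.86 (adjusted p 0.0266) without sgRNA2 replicate 2 and 2.04 (adjusted p 0.236) without sgNeg2 replicate 1. SMARCB1 shares 2923 exon bases with DERL3 on the opposite strand in GENCODE, and whether that overlap bears on the difference was not tested.

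**Figure D4:**
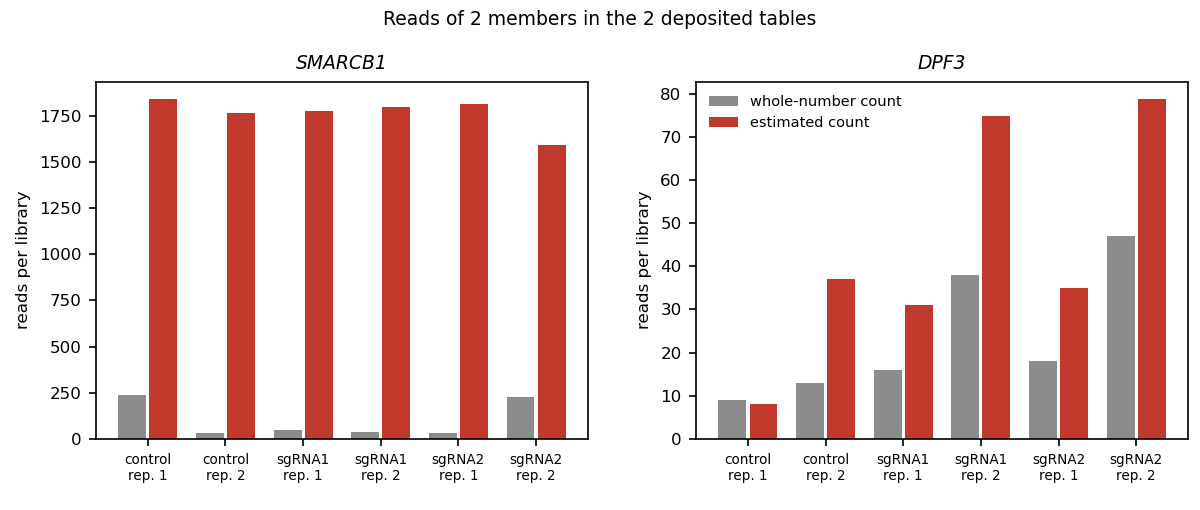
Reads per library for SMARCB1 and DPF3, with whole-number counts in grey and estimated counts in red, both on linear axes from 0. SMARCB1 has 31 to 238 whole-number counts beside 1595 to 1846 estimated counts, and DPF3 has 9 to 47 beside 8 to 79.

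Further remodeller genes share exon bases with other genes. In GENCODE, SRCAP shares 10136 exon bases with AC106886.5, BRD7 3593 with ADCY7 on the opposite strand and SMARCE1 3697 with AC073508.2. These bases make up 74.1% of the exon bases of SRCAP, 42.3% of those of BRD7 and 19.8% of those of SMARCE1. SRCAP and SMARCE1 lie on the same strand as these partners, so reads in the shared bases could come from either gene. Whether reads of ADCY7 could count for BRD7 depends on whether counting used strand, which is not given in the sources used here. The whole-number totals were 0.548 (SRCAP), 0.518 (BRD7) and 0.487 (SMARCE1) of the estimated ones, beside the median of 0.553 over tested genes. Whether the overlaps bear on any value was not tested.

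More remodeller genes were called by replicate number than by guide. With the group in the model, edgeR called 20 of 37 genes between replicate 2 and replicate 1, 15 higher and 5 lower in replicate 2, against 45.0% of all genes tested (21.6% higher and 23.5% lower). The total share called, 54.1%, was near that of all genes, and the split was 40.5% higher and 13.5% lower. From estimated counts edgeR called 24 of 37, 17 higher and 7 lower, against 52.6% of all genes. What a replicate number stands for is not stated in the labels. Summed marker levels moved with the number too. The summed FPKM of the 11 K562 markers was 13965 to 19052 in replicate 1 and 30585 to 43876 in replicate 2. HBG2 had the highest mean of the 11, at an FPKM of 15195, so this sum does not show how each marker moved. The sum of the 4 epithelial markers was 503 to 544 and 349 to 395. That of the 4 T lymphoid markers, nearly all CD3D, was 23.4 to 38.9 and 4.86 to 7.27. The 4 monocyte markers, mainly LYZ, summed to 8.98 to 12.8 and 2.43 to 4.03, and the part of any of these in the results by number was not tested.

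The genes higher in replicate 2 included BAF, PBAF, ISWI and INO80-family subunits. SS18L1 had 281, 301 and 305 counts in the replicate 1 libraries of the control, sgRNA1 and sgRNA2, and 524, 564 and 610 in the replicate 2 libraries, with no overlap, at a log2 difference of 0.87 (SE 0.0814, edgeR adjusted p 1.22e-06). HELLS had 175, 177 and 229 against 304, 348 and 354, also without overlap, at 0.73 (SE 0.102, adjusted p 5.05e-05). DPF3 had the highest estimate at 1.08 (SE 0.331, adjusted p 0.0155), and 0.41 in limma on log2(FPKM + 1), but its 13 counts in control replicate 2 lay below the 16 and 18 of the knockout replicate 1 libraries. That call was lost without any 1 of the 4 knockout libraries, with adjusted p from 0.0934 to 0.142, by the DESeq2 Wald test (0.162) and with the group left out of the model (0.0674). PBRM1 differed by 0.49 (SE 0.0658, adjusted p 3.98e-05) and BPTF by 0.48 (SE 0.0628, adjusted p 2.91e-05).

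By role, 3 of the 4 PBAF genes were higher in replicate 2, namely ARID2, PBRM1 and PHF10 but not BRD7, against 21.6% of all genes tested. Of the 5 BAF genes, ARID1A, ARID1B and DPF3 were higher, and of the 5 tested ISWI genes, BAZ1A, BAZ1B and BPTF. SMARCD1 among the core genes, SS18 and SS18L1 in the ATPase module, INO80, SRCAP and HELLS made up the rest.

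SMARCD2 had the lowest estimate of the 5 genes called lower in replicate 2 from whole-number counts. Its counts were 2008, 2289 and 2205 in the replicate 1 libraries and 1618, 1648 and 1425 in the replicate 2 libraries, with no overlap, at a log2 difference of -0.54 (SE 0.0542, edgeR adjusted p 2.73e-06). From the estimated counts it was -0.44 (SE 0.0486, adjusted p 8.91e-06), and SMARCD3 was lower still at -0.59 (SE 0.232, adjusted p 0.0481), against 0.04 (SE 0.243, adjusted p 0.897) from whole-number counts. RUVBL2 differed by -0.39 (SE 0.0499, adjusted p 2.22e-05), RUVBL1 by -0.25 (SE 0.0541, adjusted p 0.00182), SMARCC2 by -0.24 (SE 0.0539, adjusted p 0.00253) and SMARCA2 by -0.23 (SE 0.0641, adjusted p 0.00945). The SMARCA2 call was lost without sgRNA2 replicate 1 (-0.21, adjusted p 0.0508), from the estimated counts (-0.12, adjusted p 0.0945), by the DESeq2 Wald test (-0.23, adjusted p 0.105) and in all 3 limma fits of log2 FPKM, where it was weakest at -0.10 (adjusted p up to 0.244). The catalytic subunit SMARCA4 differed by -0.11 (SE 0.0497, adjusted p 0.0891) and SMARCA5 by 0.03 (SE 0.0543, adjusted p 0.630), and neither was called.

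Paralogue shares were also compared by replicate number. SMARCD1 took 28.0% ± 1.65 (SD, n = 3) of its family in replicate 1 and 37.3% ± 0.209 (n = 3) in replicate 2, while SMARCD2 took 70.4% ± 1.25 and 61.5% ± 0.164. SS18L1 took 24.8% ± 0.674 and 32.5% ± 1.09 (n = 3 each). The BCL7C share was 49.8% ± 2.01 and 43.0% ± 1.15 (n = 3 each). In 6 of the 13 families the leading paralogue's shares did not overlap between numbers (the scaled counts of 52.1% of all genes did not overlap either), each at the smallest exact permutation p of 0.1 and at 0.217 after Benjamini-Hochberg adjustment. The SMARCA4 share differed by 0.262 percentage points between numbers (exact permutation p 0.9), and the largest such difference, 9.23 points for SMARCD1, was above the 2.62 points seen with knockout.

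Median transcript length and GC content differed between the genes higher and lower in replicate 2, but the lengths overlapped. The 15 higher genes had a median deposited length of 6115 bases (range 1672 to 10879) and a median GC content of 46.8%. The 5 lower genes had 2598 bases (1771 to 5830) and 56.4%. The 17 that were not called had 2549 bases (1091 to 12317) and 53.7%. Over all genes tested the medians were 3624 bases for those higher, 2649 for those lower and 2769 for those not called, with GC contents of 48.5%, 51.3% and 48.3%. Across the 37 genes, which share the same libraries and are not independent replicates, the log2 difference had a Pearson's r of 0.35 (Spearman's rho 0.41) with log2 length and of -0.47 (rho -0.51) with GC. Across all tested genes these were 0.04 (rho 0.10, n = 11814) and -0.09 (rho -0.08, n = 11575). The part of length or GC in the difference between numbers was not tested.

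**Figure D5:**
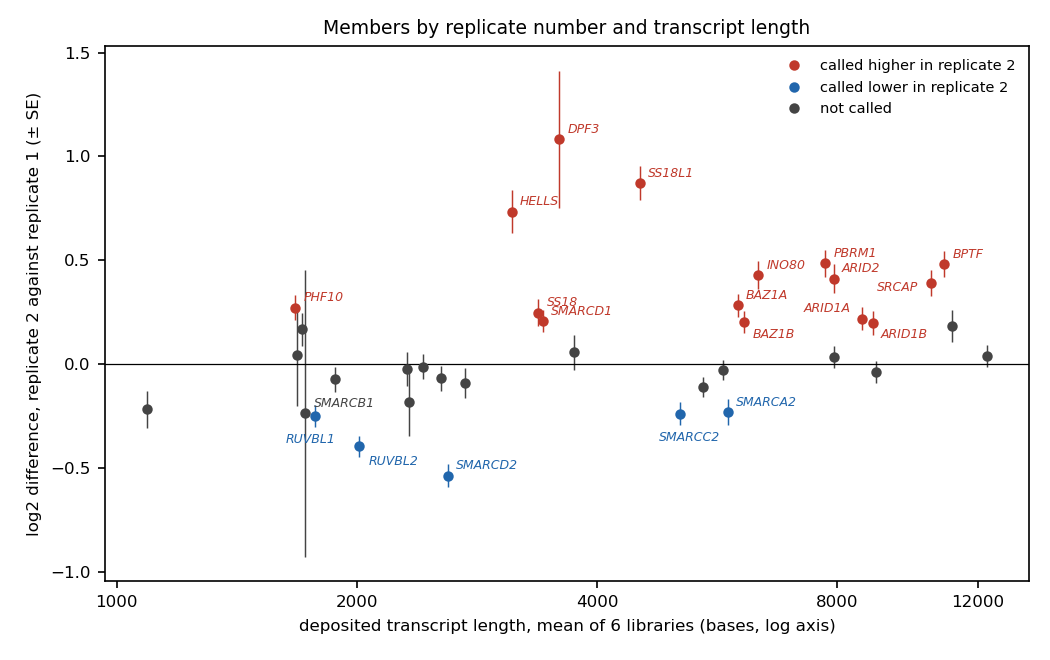
Log2 difference of replicate 2 against replicate 1 (± SE, edgeR with group in the model) against the mean deposited transcript length on a log axis, for the 37 tested genes. Red genes were called higher in replicate 2, blue genes lower and dark genes were not called. The longest of the called genes were all higher in replicate 2, but EP400, the longest of the 37, ATRX and BAZ2A were not called. DPF3, SS18L1 and HELLS lie highest.

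A further list of 54 genes, of which 50 were tested, held other subunits and partners of these complexes and 16 other SNF2-family ATPases and their partners. edgeR called 0 of 50 between knockout and control without and with the replicate block, where it called 0% and 1.84% of all genes. By replicate number, 14 were higher in replicate 2 (28.0%, against 21.6% of all genes) and 9 lower (18.0%, against 23.5%), of which the SNF2-family group gave 5 and 3. Those higher included 4 subunits of the INO80 complex (INO80D, ACTR5, ACTR8 and NFRKB), the scaffold TRRAP of the TIP60 complex and the ISWI partners POLE3 and RBBP4. Those lower included ACTB, the actin of the ATPase module, and the SRCAP-complex subunits VPS72, YEATS4, ZNHIT1 and ACTR6. The 15 tested genes listed for the SRCAP and TIP60 complexes went both ways, since DMAP1, ING3 and TRRAP were higher.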

How the data were processed

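RNA-seq of 6 K562 libraries was analysed. Per the submitters' processing notes, the tools were Trim Galore, HISAT2 2.2.1, SAMtools 1.9, HTSeq 0.6.1, RSEM 1.3.2 and DESeq2 1.36.0, with build hg38. The authors deposited whole-number counts per gene symbol (26485 symbols). Another 5 rows, for reads in no gene, held 61.64% to 62.63% of each total and were left out. Per the file headers, a second deposited table held an estimated count, a transcript length, a TPM and an FPKM for 28069 genes. Deposited FPKM and TPM are scaled to length and library size.

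The test was edgeR 4.0.16 under R 4.3.3 (quasi-likelihood, TMM, filterByExpr, Benjamini-Hochberg over all genes, called under 0.05), estimated counts after rounding. Depth limits the rare genes. DESeq2 1.42.0, limma 3.58.1 on log2(FPKM + 1), other scalings, filters and left-out libraries were alternatives. The test was also run on simulated data, whose results are not given here. Same-numbered libraries deviated together (r = 0.810, 0.756 and 0.823 over 9966 genes), so the numbers were taken to pair them, from the data alone. Replicates were not duplicates (chi-square per degree of freedom 27.6 to 32.9).

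The members and lists were chosen with earlier results of these data known. Genes named by genotype were the 3 highest and 3 lowest among genes averaging 50 counts or more with 4 of 4 paired differences on one side, and by number the 5 highest and 5 lowest called. Promoters came from RefSeq GRCh38.p14 and overlaps from GENCODE.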

Additional observations from a re-analysis of the deposited data

Results flagged for a closer look

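SMARCB1 had 24.5 CPM (whole-number counts scaled to library size) in sgRNA2 replicate 2, far above the other knockout libraries at 3.35 to 5.39. The gap to the nearest of them was 0.903 of the whole range over the 4 knockout libraries, above Dixon's critical value at the 95% level. The library was not high for SMARCB1 in the other table, where its FPKM of 63.75 was the lowest of 6. SMARCB1 was the 1 gene of 37 examined in this way that stood out, and chance picks out about 1 in 20 groups.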

How the results depend on the processing

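No remodeller gene was called by genotype or by guide in the main fits. With the main filter and all libraries, the replicate block changed no call among the 37 genes from whole-number counts (0 called in each contrast). With the block, single genes were called under some further settings. With estimated counts and the replicate block 1 gene (DPF3) was called for knockout and 1 for sgRNA2, against 0 without the block. With no filter beyond 1 count and the block, 1 was called for sgRNA1, 2 for sgRNA2 and 1 between the guides, against 1.63%, 2.37% and 0.299% of all genes. With the block, leaving out each library in turn gave 0 to 1 call for knockout, 0 to 2 for sgRNA1, 0 to 3 for sgRNA2 and 0 to 1 between guides, against 1.12% to 1.87%, 0.499% to 3.63%, 1.28% to 5.02% and 0.119% to 0.712% of all genes. Of the whole-number fits for knockout, the 2 that called a gene called SMARCB1: its log2 fold change for knockout with the block was -2.65 (edgeR adjusted p 0.00992) without sgNeg2 replicate 2, -1.86 (0.0266) without sgRNA2 replicate 2, and 2.04 (0.236) without sgNeg2 replicate 1, and, with no block, from -1.90 without sgRNA2 replicate 2 to 1.43 without sgNeg2 replicate 1. In a setting chosen after seeing the data, estimated counts with the block and each library left out gave 0 to 1 call for knockout and 0 to 4 for sgRNA2, against 1.37% to 2.84% and 1.95% to 9.42% of all genes, and the DPF3 call was lost without sgNeg2 replicate 1 or sgRNA2 replicate 2. Without the block, leaving out a library turned the direction of RUVBL1 (-0.0046 without sgNeg2 replicate 2, and up to 0.24), SS18L1 (-0.22 without sgNeg2 replicate 1, -0.07 without sgRNA2 replicate 2, and up to 0.56) and ARID1A (0.0205 without sgNeg2 replicate 2, and down to -0.29). With a library left out of a group, the lone library of that group is assumed to vary like the others. The count by number was 16 to 24 over all settings, beside 20, against 26.8% to 52.6% of all genes, beside 45.0%. The RUVBL2 share was 60.6% from estimated counts per kilobase, beside 60.1%. Depth limits DPF3, SMARCD3 and DPF1, and SMARCA1 and ACTL6B had too few counts to test.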
